A study of Rattus norvegicus with 12 samples.

Results

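The genes described here are 37 genes of cholesterol synthesis, transport and oxysterol formation, out of 17494 genes counted in hippocampal RNA of blast-exposed rats. They were listed by name. The gene that led to the list was Ch25h, whose level in boldine-fed rats was among the 5 increases with the lowest unadjusted p in an earlier ranking of the whole table. The rank depends on the method, since Ch25h had no unadjusted p under 0.05 in DESeq2. The difference of Ch25h between treatments is therefore given as a description, with no test, and the other 36 genes were added for their pathway. All 37 were found in the table and all 37 passed the filter on low counts.

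The 12 libraries came from 12 male Long Evans rats, labelled WT, that received 3 blast exposures at 10 weeks of age, 1 per day, and were sacrificed 29 weeks later. The 6 blast-boldine rats ate chow with boldine, an alkaloid of the Chilean boldo tree, at 500 mg/kg, which aimed at 25 mg/kg of body weight per day, and the 6 blast-controls ate chow without it. All 12 rats were exposed to blast, and no library of a rat without blast exposure was analysed here, so differences are between diets after blast and not between blast and no blast. The tissue is labelled brain, and the methods specify hippocampus. The hippocampal markers Prox1, Zbtb20, Wfs1, Fibcd1 and Neurod6 were detected in all 11 deeper libraries, with a summed level of 1150 to 1410 CPM in blast-boldine rats and 1070 to 1570 CPM in blast-controls (CPM, the usual scaling of counts by library total, here with TMM factors).

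Brain cholesterol is made locally, since lipoproteins of the blood do not cross the blood-brain barrier. It is built from acetyl-CoA through mevalonate, squalene and lanosterol, by enzymes whose genes are switched on together by the transcription factor SREBP-2 when membrane sterol is low. Oxysterols, which are hydroxylated forms of cholesterol, hold SREBP in the endoplasmic reticulum through the INSIG proteins and activate the nuclear receptors LXR, whose targets export cholesterol to apolipoprotein E. In the hippocampus, neurons remove cholesterol through CYP46A1, while astrocytes supply much of the cholesterol and most of the apolipoprotein E.

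Library totals lay between 10148474 and 40850106 counts in 11 rats, and the library of blast-control rat 6 held 74008 counts. A value of 3 counts was 47.5 CPM in rat 6 and 0.0658 to 0.307 CPM in the other rats. In rat 6, 9 of the 37 genes had no count, 19 had fewer than 3 counts and only 3 had at least 10, namely Apoe, Lrp1 and Fdft1. Results are therefore given with all 12 rats and without rat 6. The libraries also fell into 2 sets of 6, read from the suffixes of the library names and called sheets here. Sheet A held rats 1, 7, 9, 20, 32 and 35 and sheet B rats 4, 5, 6, 12, 17 and 19, with 3 rats of each diet in each. It was assumed that no suffix repeats within a sheet and that rat numbers rise with the suffix. The suffixes alone would allow more assignments than the 4 left by these assumptions. Of those 4, the assignment used followed the first principal component of 11 libraries most closely, holding 95.1% of its variance against 1.53% held by diet. What the sheets stand for is not given in the sources used here.

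Per kilobase of gene length, the 37 genes spanned about 3 orders of magnitude. Apoe, the main lipid carrier of the brain, was the most abundant, with a median of 1270 RPKM over the 11 deeper libraries (range 786 to 1720), followed by Hmgcs1 at 110.0 RPKM (57.0 to 141) and Lrp1 at 104 RPKM (98.1 to 132). Hmgcs1 is the synthase of an early mevalonate step, and Lrp1 is a receptor for apolipoprotein E. Their ranges overlapped. Ch25h had the lowest level of the set, with a median of 1.35 RPKM (0.849 to 1.96), and its range overlapped those of its neighbours Nr1h3 at 1.92 RPKM (1.46 to 2.30) and Cyp27a1 at 2.84 RPKM (1.76 to 4.08). Of the 3 oxysterol enzymes, the neuronal 24-hydroxylase Cyp46a1 stood far above the others, at 63.1 RPKM (50.8 to 69.6).

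Ch25h encodes cholesterol 25-hydroxylase, which forms 25-hydroxycholesterol and is induced by interferon, chiefly in macrophages. It is a gene of 1 exon at chr1:232014878-232016195 on the minus strand of mRatBN7.2. In the blast-controls Ch25h was at 1.12 CPM in rat 1, 1.18 in rat 4, 1.33 in rat 5, 1.78 in rat 7 and 1.5 in rat 9, and it had no count in rat 6. In the blast-boldine rats it was at 2.14 CPM in rat 12, 2.58 in rat 17, 2.46 in rat 19, 2.30 in rat 20, 1.75 in rat 32 and 1.94 in rat 35. The groups overlapped in a narrow zone, since rat 32 lay just below control rat 7 and the other 5 boldine-fed rats exceeded every control.

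The mean of Ch25h was 2.19 ± 0.316 CPM in blast-boldine rats (SD, n = 6) and 1.15 ± 0.613 CPM in blast-controls (SD, n = 6), or 1.38 ± 0.266 CPM without rat 6 (SD, n = 5). The fitted log2 fold change was 0.66 (SE 0.19) with all 12 rats and 0.63 (SE 0.19) in the sheet-adjusted fit, which left out rat 6 and had the sheet as a covariate. It lay between 0.57 and 0.78 when each rat was left out in turn. Within sheet A the difference in mean log2 CPM was 0.43 (3 blast-boldine rats against 3 controls) and within sheet B it was 0.87 (3 against 2), so Ch25h was higher with boldine in both sheets. These values rest on few reads: 26 to 51 counts of Ch25h per blast-boldine library and 12 to 51 per control library other than rat 6. Within groups of the same diet and sheet the SD of Ch25h was 0.228 on the log2 scale, whereas counting error alone would give 0.286, so the variation among rats of a group was no larger than that from sampling reads.

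The promoter of Ch25h is shown because it is the gene from which the comparison started. Promoter windows, of 250 bases before to 50 bases after the gene start, were taken from RefSeq on GRCr8, a later build than that of the counts, and 32 of the 37 genes had at least 1, with 35 windows in all. In the 150 bases before the start of Ch25h at chr1:241429367-241429516 (GRCr8, minus strand), the capitals mark a cyclic AMP response element, TGACGTCA, at position -77.

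Ch25h: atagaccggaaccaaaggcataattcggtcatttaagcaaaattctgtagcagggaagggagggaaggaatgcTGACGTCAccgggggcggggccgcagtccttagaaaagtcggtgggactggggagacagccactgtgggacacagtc

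This motif was looked for after the window of Ch25h had been read. Counted per gene, over all windows of a gene, it occurred in 2.0% of the 27457 genes with a window and, among the 32 genes of the set with a window, only in Ch25h. The interferon-stimulated response element, searched as GAAA, 2 bases of any kind and GAAA on both strands, was in none of the 32 genes and in 4.12% of all genes.

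**Figure D1:**
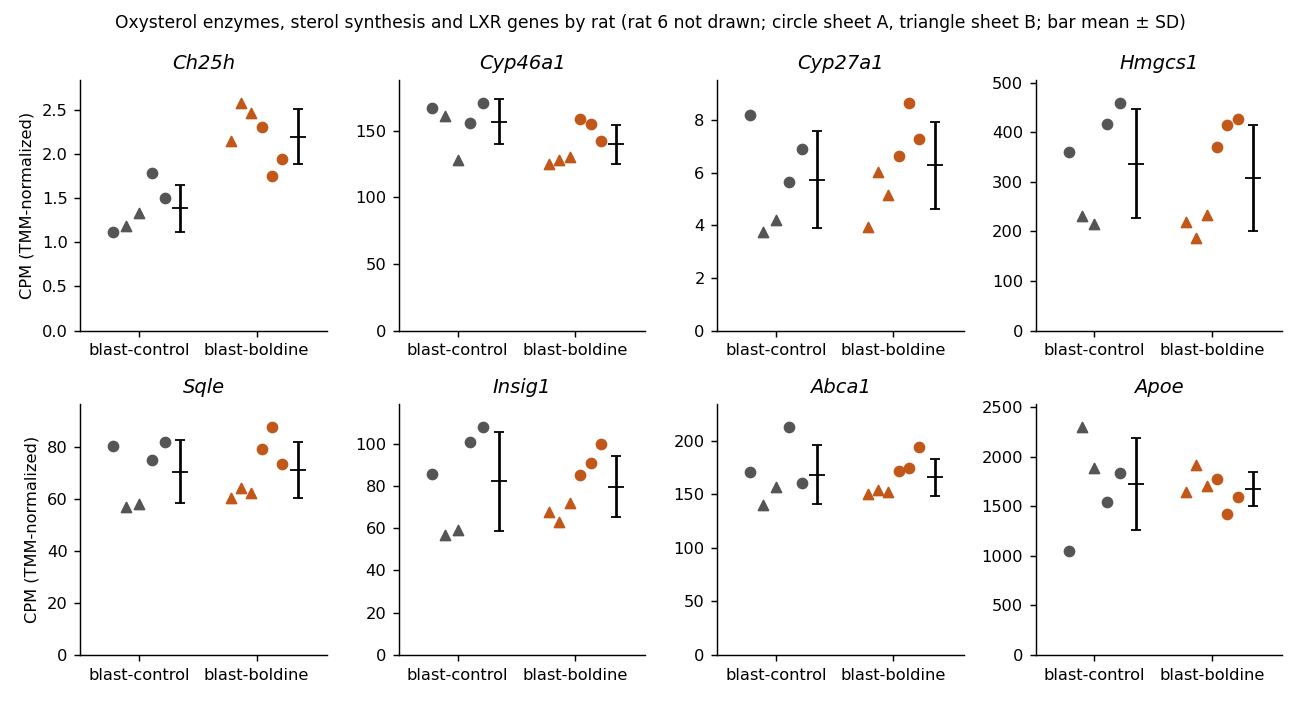
TMM-normalized CPM of 8 cholesterol genes in 11 rats, by diet. Each point is a rat, circles are sheet A and triangles sheet B, and the bar beside each group is its mean ± SD. Ch25h is higher in blast-boldine rats (1.75 to 2.58 CPM) than in controls (1.12 to 1.78 CPM), whereas Hmgcs1, Sqle and Insig1 overlap between diets and separate by sheet.

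Beside Ch25h, genes that interferon induces and markers of cells at the brain surface were compared in the sheet-adjusted fit. Of 10 interferon response genes tested, 9 had higher estimates in blast-boldine rats and 1 lower, with a median log2 fold change of 0.41. Over all genes the median in this fit was -0.0082, and 1.81% were higher and 3.54% lower by an unadjusted p under 0.05. The interferon genes with an unadjusted p under 0.05 included Mx1 (0.91, SE 0.21) and Irf7 (0.50, SE 0.18), which were higher, and Mx2 (-0.68, SE 0.31), which was lower. The summed CPM of all 11 listed interferon genes nevertheless overlapped, at 101 to 140 in blast-boldine rats and 99.6 to 129 in controls without rat 6. Its median was lower with boldine, 110 against 125 CPM. These sums mix the sheets. Mx1 was itself picked out by earlier results on these libraries, and none of these genes had an adjusted p under 0.05 in edgeR (smallest 0.889).

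All 7 markers of meningeal fibroblasts had estimates above 0, with a median log2 fold change of 0.70, and Slc6a13 (1.03, SE 0.30) and Lum (0.77, SE 0.24) had an unadjusted p under 0.05. Their summed level ranged from 78.7 to 332 CPM in blast-boldine rats and from 55.3 to 268 CPM in controls. All 4 markers of border macrophages measured had estimates above 0, with a median of 0.10, none had an unadjusted p under 0.05, and the sums were 9.52 to 17.7 CPM against 9.26 to 13.6 CPM. Of the 7 microglial markers 6 had lower estimates, with a median of -0.12 and sums of 201 to 483 CPM against 187 to 469 CPM, and Tmem119 (-0.47, SE 0.14) was lower by an unadjusted p under 0.05. All 5 choroid plexus markers had higher estimates, with a median of 0.77, and their sum ran from 8.54 to 1200 CPM in blast-boldine rats and from 12.9 to 1180 CPM in controls, so that libraries of both diets held much choroid plexus RNA and others almost none. Medians of the sums, blast-boldine against controls, were 146 and 58.8 CPM for meningeal fibroblasts and 13.0 and 10.9 CPM for border macrophages. They were 339 and 455 CPM for microglia and 445 and 15.1 CPM for choroid plexus. These sums mix the sheets, unevenly in the controls without rat 6. Kcnj13 of the choroid plexus list had no count in 1 of the 11 libraries, and each other marker of these 4 lists was detected in all of them. The part of these cells and of interferon in the difference of Ch25h was not tested, and in bulk tissue fewer cells of a type and less RNA per cell cannot be told apart.

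Across all 37 genes, no gene had an adjusted p under 0.05 in edgeR (quasi-likelihood test, adjusted over 12325 genes by Benjamini-Hochberg), and DESeq2 and limma-voom gave none either. Apart from Ch25h, which was chosen for its low p in these libraries and is not counted, none of the 36 genes had an unadjusted p under 0.05 with all 12 rats, where 0.552% of all genes were higher and 0.519% lower in blast-boldine rats at that threshold. The 36 genes had 15 estimates above 0 and 21 below, with a median log2 fold change of -0.038, against 0.0046 over all genes. DESeq2 and limma-voom called none of the 36 at an unadjusted p under 0.05 either, and their log2 fold changes of Ch25h were 0.62 and 0.57. In DESeq2 Ch25h itself did not pass that threshold, at which 31 of 15690 genes were higher in blast-boldine rats. No member had groups that did not overlap without rat 6, against 0.073% of all genes in each direction.

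Without rat 6 the same fit called none of the 36 either, in edgeR, against 0.551% of all genes higher and 0.846% lower. The common dispersion of edgeR, a measure of the variation between rats beyond counting error, was 0.104 with all 12 rats, 0.0994 without rat 6, 0.0253 with all 12 rats and the sheet, and 0.0241 in the sheet-adjusted fit. In the sheet-adjusted fit none of the other 36 genes was higher by an unadjusted p under 0.05, against 1.81% of all genes, and 1 was lower, against 3.54%. This gene was Cyp46a1, which encodes the enzyme that converts cholesterol to 24-hydroxycholesterol in neurons. Cyp46a1 ranged from 125 to 159 CPM in blast-boldine rats with a median of 136, and from 128 to 171 CPM in the 5 deeper controls with a median of 161. All 6 blast-boldine rats lay below that control median, 2 of them below every control. That median came from 3 controls of sheet A and 2 of sheet B, and Cyp46a1 was lower in sheet B (-0.24 log2 CPM). The estimate was -0.15 on the log2 scale (SE 0.066, adjusted p = 0.898 in edgeR), with -0.12 in sheet A and -0.18 in sheet B. In sheet B the blast-boldine rats were at 125 to 130 CPM, control rat 5 at 128 and control rat 4 at 161. The lower estimate of sheet B thus rested on rat 4. In sheet A the groups overlapped, with blast-boldine rat 20 at 159 CPM and control rat 7 at 156. The third oxysterol enzyme, Cyp27a1, the mitochondrial sterol hydroxylase, ranged from 3.93 to 8.68 CPM with boldine and from 3.75 to 8.21 CPM without, and its estimate was 0.19 on the log2 scale (SE 0.15, adjusted p = 0.908 in edgeR).

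**Figure D2:**
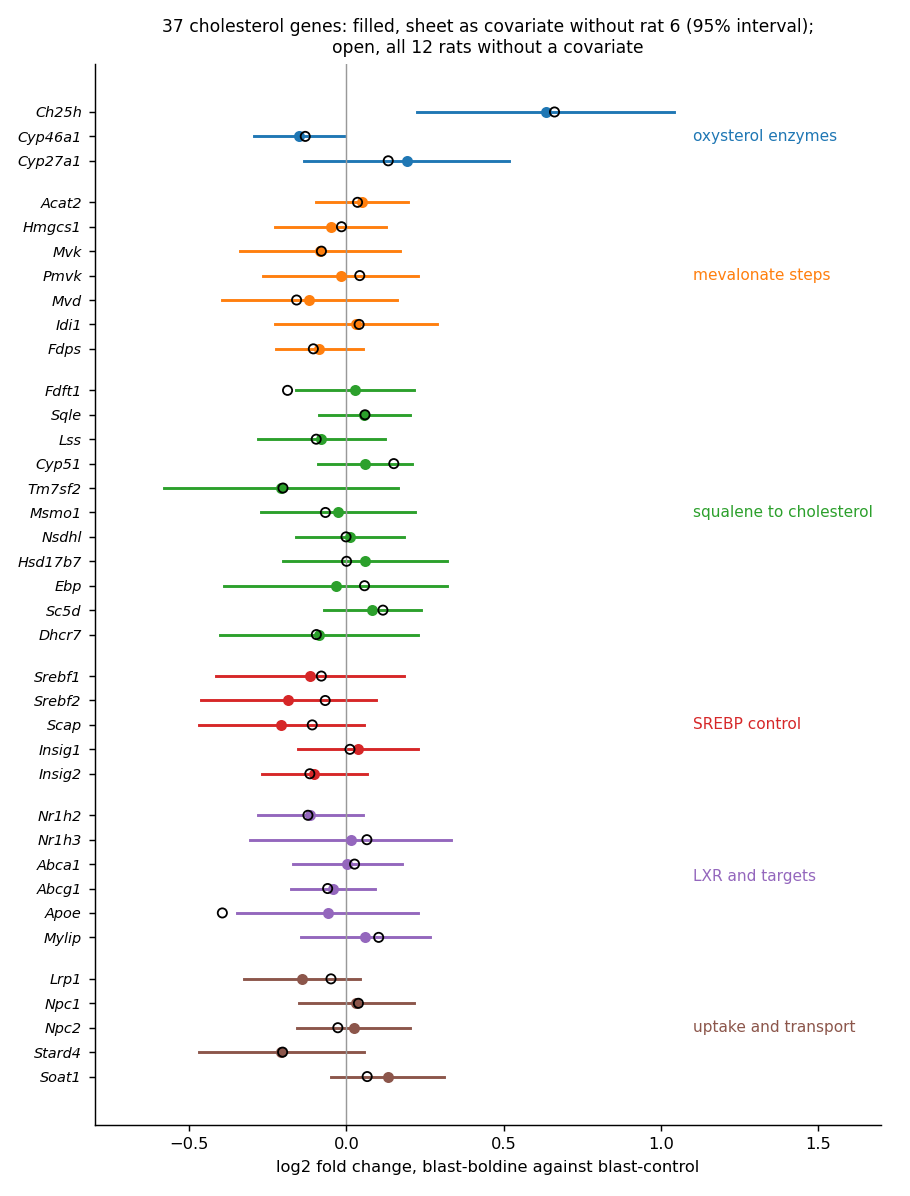
Log2 fold change of each of the 37 genes, blast-boldine against blast-control, grouped by role. Filled points and lines are estimates with 95% intervals from the sheet-adjusted fit of 11 rats, and open points are estimates from all 12 rats without a covariate. The point of Ch25h, the gene that led to the list, lies farthest right (0.63), and of the other 36 genes only Cyp46a1 has an interval that leaves out 0, while open and filled points lie apart mainly for Apoe and Fdft1.

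In the 18 genes of sterol synthesis no change with diet was detected. With all 12 rats, 8 had estimates above 0 and 10 below, with a median log2 fold change of -0.0081, and none had an unadjusted p under 0.05. In the sheet-adjusted fit the counts were again 8 and 10 and the median was -0.022, against -0.0082 over all genes. The 95% intervals of the 18 genes then lay between -0.58 (Tm7sf2) and 0.32 (Hsd17b7), with a median half-width of 0.22. With all 12 rats and no covariate they were wider and reached from -1.10 (Tm7sf2) to 0.80 (Dhcr7). Since rat 6 held so few counts of these genes, the log2 fold changes of single genes that follow are from the sheet-adjusted fit unless all 12 rats are named, and all their adjusted p in edgeR were at least 0.898. The 5 deeper controls were 3 rats of sheet A and 2 of sheet B, whereas each sheet held 3 blast-boldine rats. For genes that differed between the sheets, the medians of CPM that follow therefore compare unlike mixes of sheets. Their differences are not differences of diet alone.

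In the 7 mevalonate steps, Hmgcs1 ranged from 186 to 426 CPM in blast-boldine rats (median 302) and from 215 to 460 CPM in the 5 deeper controls (median 360), and rat 6 had 8 counts. The ranges coincided almost wholly, and the log2 fold change was -0.050 (SE 0.082). Mvd, mevalonate diphosphate decarboxylase, had the lowest estimate of these steps, with 8.63 to 33.7 CPM (median 21.8) against 10 to 36 CPM (median 29.3) and a log2 fold change of -0.12 (SE 0.13). Pmvk, phosphomevalonate kinase, had the highest estimate with all 12 rats, at 0.043 (SE 0.16), and -0.017 (SE 0.11) in the sheet-adjusted fit. Its levels were 32.8 to 42.2 CPM (median 39.2) with boldine and 28.3 to 48.7 CPM (median 37.3) in the deeper controls. Acat2, Mvk, Idi1 and Fdps, which make acetoacetyl-CoA, phosphorylate mevalonate, isomerize the isoprene unit and join it to farnesyl diphosphate, had groups that overlapped as well.

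Among the 11 genes from squalene to cholesterol, Sqle, squalene epoxidase, ranged from 60.5 to 87.7 CPM with boldine (median 68.8) and from 56.8 to 82.0 CPM in the deeper controls (median 75.0). Its log2 fold change was 0.057 (SE 0.067). Cyp51, lanosterol demethylase, had the highest estimate with all 12 rats, 0.15 (SE 0.17), which became 0.058 (SE 0.069) in the sheet-adjusted fit. It ranged from 176 to 203 CPM (median 192) against 160 to 205 CPM (median 184) in the deeper controls, and rat 6 had 4 counts of it. Tm7sf2, a sterol reductase, had the lowest estimate, -0.21 (SE 0.17), with 2.38 to 10.8 CPM (median 6.74) against 3.89 to 10.4 CPM (median 9). In sheet A the 3 blast-boldine rats were at 9.83, 10.8 and 10.5 CPM of Tm7sf2 and the 3 controls at 9, 10.4 and 9.76. In sheet B they were at 3.64, 2.38 and 3.08 CPM and the 2 controls at 6.12 and 3.89, so the low values of Tm7sf2 were those of sheet B.

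For Fdft1, squalene synthase, the estimate depended on rat 6. Without rat 6 it ranged from 116 to 151 CPM with boldine (median 131) and from 109 to 148 CPM in controls (median 124), and the 25 counts of rat 6 amounted to 396 CPM. Its log2 fold change was -0.19 (SE 0.25) with rat 6 and 0.028 (SE 0.087) in the sheet-adjusted fit.

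Sterol synthesis genes are known to share promoter elements for SREBP-2 and for the CCAAT-binding factor NF-Y, and stretches of 4 promoters are printed here to show the second of these elements. Of the 15 synthesis genes with a promoter window, 12 held ATTGGC or its complement, a CCAAT box with 1 flanking base, against 15.2% of all 27457 genes. The bare CCAAT, part of the same match, was in 12 of 15 against 39.6%. The capitals in the following stretches of GRCr8 mark ATTGGC or, read on the other strand, GCCAAT. They are Hmgcs1 at chr2:53382104-53382188 (plus strand), Fdps at chr2:176804885-176804958 (minus), Nsdhl at chrX:155817220-155817286 (plus), and the SREBP regulator Insig1 at chr4:8057945-8057974 (minus).

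Hmgcs1: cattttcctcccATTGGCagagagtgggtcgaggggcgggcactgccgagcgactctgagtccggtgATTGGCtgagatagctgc

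Fdps: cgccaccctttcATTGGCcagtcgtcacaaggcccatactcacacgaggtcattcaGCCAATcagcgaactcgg

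Nsdhl: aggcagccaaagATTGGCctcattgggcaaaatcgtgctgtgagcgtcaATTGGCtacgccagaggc

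Insig1: cgccctcctcccATTGGCtcccgcggcctc

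Hmgcs1, Fdps and Nsdhl held 2 matches each in these stretches and Insig1 held 1, between positions -193 and -86 from the gene start. The strict sterol regulatory element TCACNCCAC was in none of the 32 genes, against 1.25% of all genes, and the looser TCACNNNAC was in 3 of the 15 synthesis genes, against 12.1%. The GC box GGGCGG was in 13 of the 15, against 36%. These letters say nothing of whether a factor was bound. Whether the motif went with the difference between the sheets described below was not tested. Of the 12 synthesis genes with ATTGGC, Ebp and Lss were higher in sheet B and the others in sheet A. Acat2, Cyp51 and Dhcr7 had a window without it, and of these Acat2 and Dhcr7 were higher in sheet A and Cyp51 was level.

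The 5 genes of SREBP control had 4 estimates below 0 and 1 above in the sheet-adjusted fit, and none passed an unadjusted p of 0.05. Insig1, which retains SREBP in the endoplasmic reticulum and is itself an SREBP target, was at 63.0 to 100 CPM with boldine (median 78.6) and at 57.0 to 108 CPM in the deeper controls (median 85.6), with a log2 fold change of 0.037 (SE 0.088). Insig2, its relative, was at 19.3 to 23.4 CPM (median 21.8) against 21.5 to 24.2 CPM (median 22.8), with a log2 fold change of -0.10 (SE 0.077). Scap, the escort of SREBP to the Golgi, had the lowest estimate of this group, -0.21 (SE 0.12), and Srebf2, the gene of SREBP-2, had -0.18 (SE 0.13). The difference in mean log2 CPM was -0.071 for both genes in sheet A, and -0.31 (Scap) and -0.25 (Srebf2) in sheet B. The deeper controls of sheet B lay far apart, with rat 4 at 197 (Scap) and 465 CPM (Srebf2) and rat 5 at 108 and 245 CPM. The blast-boldine rats of sheet B lay between them, at 110 to 122 and 264 to 301 CPM. The lower estimates of sheet B thus rested on rat 4.

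Of the 6 genes of LXR and its targets, 3 had estimates above 0 and 3 below. The cholesterol exporter Abca1, a main LXR target, was at 150 to 194 CPM with boldine (median 163) and at 140 to 213 CPM in the deeper controls (median 161), and its log2 fold change was 0.0032 (SE 0.080, 95% interval -0.17 to 0.18). Apoe was at 1420 to 1920 CPM with boldine (median 1670) and at 1050 to 2300 CPM in the deeper controls (median 1830), with the lowest level in rat 1. In rat 6 it had 297 counts, or 4700 CPM, above every other library. The log2 fold change of Apoe was -0.39 (SE 0.29) with rat 6 and -0.059 (SE 0.13) in the sheet-adjusted fit. Mylip, a ubiquitin ligase that LXR induces, was at 35.3 to 68.9 CPM (median 49.8) against 35.6 to 69.1 CPM (median 40.2), with a log2 fold change of 0.061 (SE 0.094). Its higher values were those of sheet B in both groups. The receptors Nr1h2 and Nr1h3 and the exporter Abcg1 also had overlapping groups.

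Among the 5 genes of uptake and transport, Stard4, a carrier of sterols between membranes, was at 20.8 to 31.7 CPM with boldine (median 25.9) and at 24.6 to 39.9 CPM in the deeper controls (median 28). Its log2 fold change was -0.21 (SE 0.12). Soat1, which esterifies cholesterol for storage, was at 21.8 to 31.5 CPM (median 27.2) against 19.5 to 28.9 CPM (median 26.2), with a log2 fold change of 0.13 (SE 0.083). Lrp1, Npc1 and Npc2, of which Npc1 and Npc2 release cholesterol from lysosomes, had estimates of -0.14, 0.032 and 0.023 on the log2 scale.

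Of 30 further genes of the pathway that are not in the set, 28 could be tested. With all 12 rats 16 had estimates above 0 and 12 below, and none had an unadjusted p under 0.05. In the sheet-adjusted fit 13 had estimates above 0 and 15 below. There 1 of them was lower by an unadjusted p under 0.05, against 3.54% of all genes. Gpr183, the receptor for the oxysterol that CYP7B1 makes from 25-hydroxycholesterol, had a log2 fold change of 0.20 (SE 0.21) in the sheet-adjusted fit.

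Many of these genes differed more between the sheets than between the diets. The assignment to sheets was chosen on these libraries, so these differences are a description with no test. Of the 37 genes, 17 were higher in every library of sheet A than in every library of sheet B other than rat 6, and 1 gene, Mylip, was higher throughout sheet B. Over all genes tested, 24.2% were higher throughout sheet A and 24.8% throughout sheet B. The 18 synthesis genes differed by a median of -0.37 log2 CPM (sheet B minus sheet A), against -0.022 over all genes, and 5 of the 18 were more than 2-fold higher in sheet A, against 7.45% of all genes.

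Mvd was at 29.3 to 36 CPM in sheet A and at 8.63 to 16.5 CPM in sheet B, a difference of -1.49 in mean log2 CPM. Tm7sf2 (-1.43), Dhcr7 (-1.40), Msmo1 (-1.39) and Mvk (-1.01) were the other synthesis genes over 2-fold apart, and Srebf1, the gene of SREBP-1, differed by -1.13. Dhcr7 makes cholesterol from its last precursor, and Msmo1 removes methyl groups from the sterol ring. Hmgcs1 was at 360 to 460 CPM in sheet A and 186 to 233 CPM in sheet B. Not every synthesis gene followed, since Ebp (0.58), Pmvk (0.26), Lss (0.22) and Fdft1 (0.12) were higher in sheet B and Cyp51 was level (-0.011). Ch25h was nearly level too (0.12).

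Markers of several cell types differed between the sheets in the same direction, by a median of -1.16 for 5 choroid plexus markers and -1.10 for 7 microglial markers. The median was -0.76 for 6 oligodendrocyte markers, -0.65 for 7 markers of meningeal fibroblasts and -0.41 for 6 astrocyte markers. It was -0.38 for 5 ependymal markers, -0.33 for 3 markers of oligodendrocyte precursors and -0.20 for 6 neuronal markers. In the other direction, 4 endothelial markers differed by 0.76, 3 border macrophage markers by 0.31 and 5 hippocampal markers by 0.27. The part of cell makeup in the difference of the cholesterol genes was not tested.

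**Figure D3:**
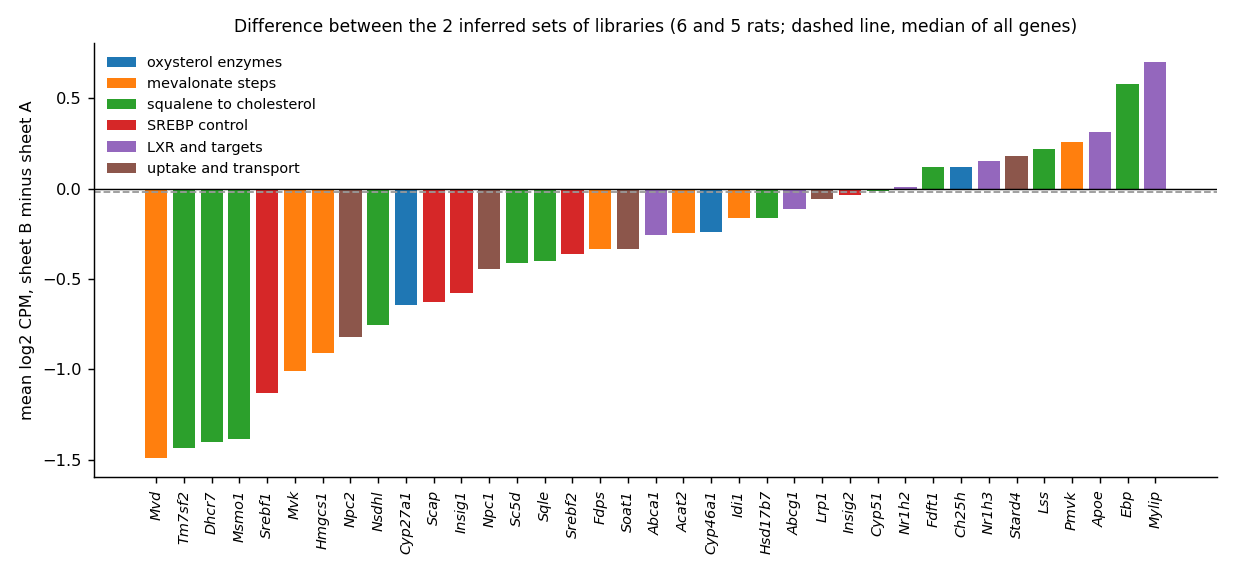
Difference in mean log2 CPM between the sheets, sheet B (5 rats, without rat 6) minus sheet A (6 rats), for the 37 genes, coloured by role. The dashed line is the median of all genes tested (-0.022). Mvd, Tm7sf2, Dhcr7 and Msmo1 lie lowest, near -1.4 to -1.49, Mylip lies highest at 0.70, and Ch25h is near 0.

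Whether sterol synthesis genes relate to Ch25h was asked across the 11 rats other than rat 6, on log2 CPM after the mean of each combination of diet and sheet was removed. Since 25-hydroxycholesterol is known to lower SREBP-2 targets and to raise LXR targets, 4 relations were tested by exact two-sided permutation within these combinations (432 arrangements, smallest possible p = 0.0023). Ch25h and Hmgcs1 had r = 0.072 and rho = -0.12 (exact permutation p = 0.905 and 0.812). Ch25h and Sqle had r = -0.29 and rho = -0.19 (exact permutation p = 0.481 and 0.641). Neither relation was detectable, and within these combinations Ch25h varied no more than counting error would give.

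For Insig1 the values were r = 0.33 and rho = 0.19 (exact permutation p = 0.583 and 0.711), and for Abca1 r = 0.46 and rho = 0.43 (exact permutation p = 0.481 and 0.336). Adjusted over the 4 relations, the smallest p was 0.778 for r and 0.812 for rho. Rats 1 and 4 lay farthest from the median of Ch25h, and without them r was -0.66 for Hmgcs1, -0.34 for Sqle, -0.49 for Insig1 and 0.36 for Abca1. The signs for Hmgcs1 and Insig1 thus turned, and leaving out rat 1 alone was enough for this (r = -0.68 and -0.41), so the values rested on that rat. For Abca1, r was -0.11 without rat 7. Within the 6 rats of sheet A, r was 0.12 for Hmgcs1, -0.25 for Sqle, 0.026 for Insig1 and 0.30 for Abca1, and sheet B held too few rats.

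Over all 18 synthesis genes, 9 had a positive and 9 a negative r with Ch25h, with a median of -0.080, whereas 46.7% of all genes had a positive r, with a median of -0.029. These are descriptions over the same 11 libraries. The values ran from -0.65 for Nsdhl, a sterol dehydrogenase, to 0.56 for Fdps. Among the other 18 genes they ran from -0.58 for Insig2 to 0.79 for Nr1h2, the gene of LXR beta, and Apoe had 0.69. The genes most like Ch25h among 12021 were Pgm1 (r = 0.90), Disp3 (0.90), Edem2 (0.88) and Gatm (0.85), none of them in the set. The deviations of Ch25h also moved with library depth (r = -0.67 with the log2 total) and with the mean of 3 border macrophage markers (r = -0.82), and the part of either was not tested. These values were the largest in size among library depth and all the marker lists compared. With 12 to 51 counts, the deviations of Ch25h were no larger than counting error alone would give (SD 0.228 against 0.286 log2). These correlations therefore cannot tell a relation of Ch25h with another gene from its absence.

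**Figure D4:**
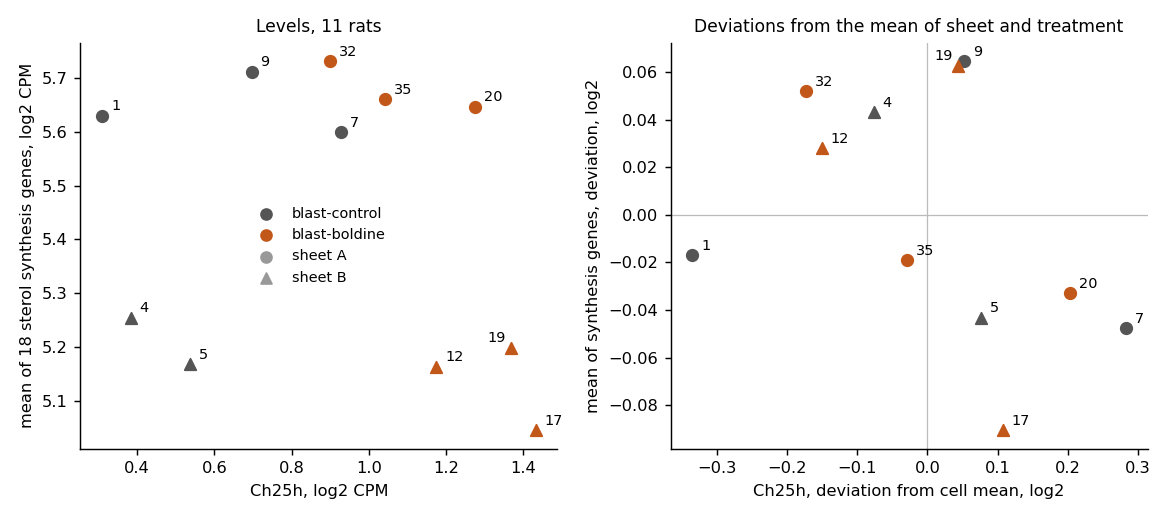
Ch25h against the mean of 18 sterol synthesis genes in 11 rats, as log2 CPM (left) and as deviations from the mean of each combination of diet and sheet (right). Numbers are rats, colours are diets and shapes are sheets. On the left the synthesis mean separates the sheets (5.05 to 5.25 in sheet B, 5.60 to 5.73 in sheet A), and on the right the deviations scatter widely (r = -0.40, a description with no test).

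Within these combinations the synthesis genes varied together only in part. The median r over 153 pairs of synthesis genes was 0.12, against 0.0005 over all pairs of genes tested, and 56.9% of the pairs were positive. Nsdhl followed the mean of the other synthesis genes most closely (r = 0.92), then Mvd (0.73), Hmgcs1 (0.70) and Sc5d (0.65), while Pmvk ran against it (-0.53). Outside synthesis, Insig2 (0.66), Scap (0.58) and Srebf2 (0.57) had positive values, and Nr1h2 (-0.77), Mylip (-0.71) and Abca1 (-0.55) negative values. The mean of the synthesis genes also moved with that of 6 astrocyte markers (r = 0.79) and against that of 3 markers of oligodendrocyte precursors (r = -0.76), and their part was not tested. The deviations were small: the mean of the synthesis genes differed from that of its own diet and sheet by at most 0.091 log2 CPM in any rat.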

How the data were processed

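RNA from 12 rats was sequenced from TruSeq stranded total RNA libraries after ribosomal RNA depletion, with 1 library per rat. The authors used HTStream to clean reads and drop PCR duplicates, STAR 2.7.11b to align them to mRatBN7.2, and counted them per RefSeq gene with featureCounts of Subread 2.0.1. The deposited values are whole-number counts without normalization for 17494 genes. RNA integrity numbers were above 7.

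Counts were tested with edgeR 4.0.16 in R 4.3.3 (quasi-likelihood test, two-sided, TMM, filterByExpr with its minimum of 10 counts, 12325 genes kept, diet as the only term, Benjamini-Hochberg adjustment at 0.05). The log2 CPM used a prior count of 2, RPKM used the gene lengths in the table, and 3 counts were taken as the smallest detected value, which covers counting error only. Residual correlations were tested by exact permutation in Python 3.11.15 with scipy 1.17.1. Sheets were assumed to repeat no library suffix and to have rat numbers that rise with the suffix. Of the 4 assignments that this allows, that which followed the first principal component most closely was taken. Positions came from RefSeq on mRatBN7.2 and promoters from RefSeq on GRCr8.

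The members and lists were chosen with earlier results of these data known. Values per rat were given for Ch25h, for genes with an unadjusted p under 0.05, for the highest and lowest estimate of each role, and for 6 named genes. Alternatives were DESeq2 1.42.0, limma-voom (limma 3.58.1), RLE size factors, no filter, at least 10 counts in every rat, the sheet as a covariate with and without rat 6, another prior count, and each rat left out. Scripts were tested on simulated data. The replicates were separate animals. Enrichment of GO terms was left out. Lrp8 and the markers Dsp, Cbr2 and Ly6c1 were not analysed here, and Ifit1 was too low to test. Some genes of the lists compared, among them genes with an unadjusted p under 0.05 in the sheet-adjusted fit, are not reported here.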

Additional observations from a re-analysis of the deposited data

Results flagged for a closer look

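Each of the 37 genes was examined for a rat far from the others of its group, by the gap to the nearest rat over the range of the group (Dixon's 95% criterion), in blast-boldine rats, in blast-controls and in blast-controls without rat 6. Of 111 groups 17 passed, where chance gives about 1 in 20, and 15 of these were rat 6, with 74008 counts. Ch25h, Cyp27a1, Mvk, Mvd, Tm7sf2, Nsdhl, Ebp, Dhcr7 and Nr1h3 had no count in rat 6, which stands at -3.07 log2 CPM on the scale with a prior count and is under the floor of 47.5 CPM. Rat 6 also lay lowest for Cyp51 (5.99 log2 CPM, 4 counts), Sc5d (4.0 log2 CPM, 1 count) and Scap (4.0 log2 CPM, 1 count). It lay highest for Fdft1 (8.63 log2 CPM, 25 counts), Hsd17b7 (4.99 log2 CPM, 2 counts) and Insig2 (4.99 log2 CPM, 2 counts). Apart from rat 6, Scap was lowest in control rat 5 (6.75 log2 CPM, next 7.58) and Lrp1 was highest in blast-boldine rat 32 (10.78 log2 CPM, next 10.57). The groups examined mix the sheets. In sheet B, the sheet of rat 5, the blast-boldine rats were at 6.79 to 6.93 log2 CPM of Scap, near rat 5. The other deeper control of sheet B, rat 4, was at 7.62 log2 CPM.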

How the results depend on the processing

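No member had an adjusted p under 0.05 in any setting. The number with an unadjusted p under 0.05 was 1, Ch25h, with all 12 rats and no covariate in edgeR. It was 0 with at least 10 counts in every rat (3 members left to test), 0 in DESeq2, and 2 in the sheet-adjusted fit of 11 rats. Leaving out each rat gave 1 throughout, which is no support for Ch25h, since that gene was chosen for its low p in these libraries. The median log2 fold change of the synthesis genes was -0.093 to 0.044 with each rat left out. Of 651 other member values, 5 moved by more than the SD of log2 CPM among rats of a diet, all of Apoe and Fdft1. That SD includes the difference between the sheets. It is wide for genes such as Mvd and Tm7sf2, so this count says little about their stability. No paired analysis was possible because the groups share no replicate numbers.

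The correlations with Ch25h depended on single rats, and their cause was not tested. For Hmgcs1, r was -0.14 with only diet means removed, -0.66 without the 2 rats farthest from the median of Ch25h, and -0.68 to 0.30 with each rat left out (lowest without rat 1). For Insig1, r was -0.49 without the 2 farthest rats and -0.41 to 0.61 with each left out. For Abca1 it was -0.11 to 0.65 with each left out, and for Sqle 0.92 with rat 6 kept. The median r of the synthesis genes was 0.89 with rat 6 kept, where Ch25h had no count, and -0.34 to 0.036 with each rat left out. Depth limited Ch25h, with 12 to 51 counts per library, and rat 6, in which 19 of 37 genes had fewer than 3 counts.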
